A study of Mus musculus with 4 samples.

Results

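The levels and isoforms of 10 cytosolic and mitochondrial heat shock protein genes were examined in mouse neural stem cells sequenced by Nanopore long-read PCR-cDNA sequencing. The members were set by symbol in the GENCODE M21 annotation: Hspa8, Hspa1a, Hspa1b, Hsph1, Dnaja1, Dnajb1, Hsp90aa1, Hsp90ab1, Hspd1 and Hspe1. Of the 10 genes, 8 had at least 1 isoform in the count table, with 58 isoforms in all, out of 14949 genes and 46637 isoforms that name a gene. The stem cells were derived from embryonic neocortex of floxed mice and treated for 3 days with lipid nanoparticles (LNP), which carry nucleic acid into cells. There was 1 library per group, so differences between groups include those between single cultures. Tut1f/f cells, homozygous for floxed Tut1, received empty LNP and are the control. The remaining libraries received LNP with Cre mRNA and are called by their labels as follows. The Tut1-Cre-labelled library comes from cells homozygous for floxed Tut1 (Tut1f/f;Cre), the Trp53-Cre-labelled library from cells homozygous for floxed Trp53 (Trp53f/f;Cre), and the double-Cre-labelled library from cells with both floxed genes (Tut1f/f;Trp53f/f;Cre). Cre was given as mRNA to the whole culture, not driven by a promoter. No Trp53f/f or double-floxed library without Cre mRNA was analysed here, so genotype, Cre mRNA and LNP load cannot be told apart in comparisons with the control. Values are given below in the order control, Tut1-Cre, Trp53-Cre and double-Cre. In bulk libraries such as these, fewer cells of a type and less RNA per cell cannot be told apart.

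Heat shock proteins are molecular chaperones that keep other proteins folded, and many are made in proliferating cells without stress. In the cytosol, HSP70 proteins bind short hydrophobic stretches of a client, J-domain proteins of the DNAJ family deliver clients and stimulate ATP hydrolysis by HSP70, and HSP110 proteins exchange the nucleotide. Clients such as kinases and transcription factors, p53 among them, can pass from HSP70 to HSP90, while in the mitochondrial matrix the barrel-shaped chaperonin HSP60 and its lid HSP10 fold imported proteins. Heat shock factors switch on many of these genes under stress by binding heat shock elements, which are inverted repeats of a short unit upstream of the gene.

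The upstream sequences of these genes show which of them carry such an element next to the start, and are given here because the members differ in it. RefSeq promoter windows (GRCm38.p6) were found for 7 of the 10 genes, 12 windows in all, and the 250 bases before each start were searched on both strands. Hspa8, Hsp90aa1 and Hsp90ab1 had no window and were not searched, so nothing is said of their elements. A 2-unit element was spelled GAANNTTC or TTCNNGAA, a 3-unit element GAANNTTCNNGAA or TTCNNGAANNTTC, and longer forms contain the shorter ones. Of all 32851 windows, 12.8% held a 2-unit form, 0.466% a 3-unit form and 0.0213%, or 7 windows, a 4-unit form. Among the members, 7 of 12 windows, belonging to 6 genes, held a 2-unit form. Hspd1 and Hspe1 are transcribed away from each other, and the only 4-unit match of the members lies upstream of the Hspe1 start and of 1 of the 2 Hspd1 starts, inside the annotated span of Hspd1, so it counts in a window of each gene. In the following stretches, written 5′ to 3′ on the strand of the gene, capitals mark the matched element. The stretch of Hspe1 is chr1:55088053-55088082 on the plus strand, and that of Hspd1 is the same bases on the minus strand. Those of Dnaja1 (chr4:40722333-40722362, plus strand) and Hsph1 (chr5:149636351-149636380, minus strand) hold a single 2-unit match. Both matches lie before a RefSeq start but inside the annotated span of their own gene. The Dnaja1 match lies in 1 of its windows, and its other windows held none. Those of Hspa1a (chr17:34972207-34972306) and Hspa1b (chr17:34959289-34959388), both on the minus strand, are identical to each other.
Hspe1: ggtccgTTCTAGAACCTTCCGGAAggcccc
Hspd1: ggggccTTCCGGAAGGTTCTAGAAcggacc
Dnaja1: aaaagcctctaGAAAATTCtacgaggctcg
Hsph1: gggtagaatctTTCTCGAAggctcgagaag
Hspa1a: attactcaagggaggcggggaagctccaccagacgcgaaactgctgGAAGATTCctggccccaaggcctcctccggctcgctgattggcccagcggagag
Hspa1b: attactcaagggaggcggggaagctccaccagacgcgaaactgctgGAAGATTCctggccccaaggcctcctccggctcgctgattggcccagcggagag
The Dnajb1 windows held no match with these letters. A match is a description of the letters and not of factor binding, and no binding was measured.

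The libraries held 5125888, 4253498, 4830314 and 3936827 reads, of which entries that name no gene took 17.2% in the control and 27.3% to 30.2% in the others. The ribosomal RNA gene CT010467.1 took 18.7% of gene-naming reads in the control and 5.46% to 9.75% in the others, and the part of these shifts in the results below was not tested. Levels are counts per 1e6 gene-naming reads (CPM) scaled by edgeR's trimmed mean of M-values (TMM), and intervals are exact 95% intervals that cover counting error only. PCR reads carry no molecular identifiers, so they are not independent molecules. All 8 neural stem cell markers of a list were detected, with summed levels of 11812 to 13159 CPM that Fabp7 dominates, at 9613 to 11246 CPM. Of the 8, Nes, Sox2, Pax6, Sox9 and Hes1 were higher than the control in all 3 libraries with Cre mRNA, as Hes1 at 149 CPM in the control and 447 to 505 CPM in the others. Slc1a3 differed little, at 288 CPM in the control and 297 to 329 CPM in the others. Vim was lower in all 3, at 1259 CPM against 615 to 767 CPM. In contrast, the microglia and endothelium lists were at 0 throughout and the mesenchyme list had 0 to 1 read. Neuron markers summed to 75.3 to 88.8 CPM, with Rbfox3 at 0. Tut1 had 37, 11, 14 and 27 reads and Trp53 had 175, 67, 10 and 19 reads. Trp53 was lowest in the libraries labelled with floxed Trp53 and was also lower than the control, at 22.4 against 43.8 CPM, in the Tut1-Cre-labelled library. Tut1 was at 9.26, 3.67, 4.12 and 9.04 CPM, low also in the Trp53-Cre-labelled library and near the control in the double-Cre-labelled one. Cre removes exon 2 of floxed Tut1, so reads of the whole gene can remain after deletion and do not check the Tut1 labels, and the exons of these reads were not analysed here. Every direction below is between libraries as labelled.

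Dnaja1 and Hspa8 were lower than the control in each library that received Cre mRNA, and had the largest differences of the members in the Tut1-Cre-labelled and Trp53-Cre-labelled libraries. In the double-Cre-labelled library Hspe1, described below, and Dnaja1 differed most and about equally, at log2 ratios of 0.63 and -0.62. Hspa8 encodes HSC70, the HSP70 protein that cells make without stress (chr9:40800984-40810087, plus strand). It had 5596, 2377, 2731 and 3361 reads, or 1400, 794, 803 and 1126 CPM. The control was highest, the Tut1-Cre-labelled and Trp53-Cre-labelled libraries were alike, and the double-Cre-labelled library lay between. Against the control the log2 ratios were -0.82 (interval -0.89 to -0.75), -0.80 (-0.87 to -0.74) and -0.32 (-0.38 to -0.25). The summed level of 5 astrocyte markers, of which 3 or 4 were detected, was likewise highest in the control, at 384, 243, 220.0 and 315 CPM, with the defining marker Gfap at 0 in all 4 libraries. Aldoc carried most of that sum, at 334, 231, 213 and 284 CPM, and Aldh1l1 differed most, at 46.8, 5.34, 3.23 and 23.8 CPM, whereas S100b was lowest in the control, at 2.50, 5.34, 2.94 and 7.03 CPM, and Aqp4 had 0, 4, 3 and 1 reads. That of 5 oligodendrocyte lineage markers, all detected, was lowest in the control, at 286, 503, 608 and 392.5 CPM. Their part in the result was not tested.

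Dnaja1 encodes a J-domain protein that works with HSC70 and has a farnesylated tail (chr4:40722150-40737149, plus strand). It had 1073, 364, 434 and 523 reads, or 269, 122, 128 and 175 CPM. The order of the libraries was the same as for Hspa8, its HSP70 partner. The level was 2.21-fold lower in the Tut1-Cre-labelled library than in the control, a log2 ratio of -1.14 (interval -1.32 to -0.97). It was about as low in the Trp53-Cre-labelled library, with a log2 ratio of -1.07 (interval -1.24 to -0.91). In the double-Cre-labelled library the log2 ratio was -0.62 (interval -0.77 to -0.46).

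The other J-domain member, Dnajb1, encodes the stress-inducible HSP40 (chr8:83608193-83612653, plus strand) and differed little from the control. Its reads were 213, 155, 169 and 133, or 53.3, 51.8, 49.7 and 44.5 CPM. All 3 intervals against the control included no change, and the widest difference, in the double-Cre-labelled library, was a log2 ratio of -0.26 (interval -0.58 to 0.06). Hsph1, the HSP110 nucleotide exchange factor (chr5:149614287-149636376, minus strand), had 356, 327, 382 and 273 reads, or 89.1, 109, 112 and 91.4 CPM. It was slightly higher in the libraries labelled Tut1-Cre (log2 ratio 0.29, interval 0.07 to 0.51) and Trp53-Cre (0.33, interval 0.12 to 0.55) and near the control in the double-Cre-labelled library (0.04, interval -0.20 to 0.27). The intervals of the J-domain genes Dnaja1 and Dnajb1 did not overlap in the Tut1-Cre-labelled and Trp53-Cre-labelled libraries, and overlapped in the double-Cre-labelled one. How often other pairs of genes fail to overlap was not computed.

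**Figure D1:**
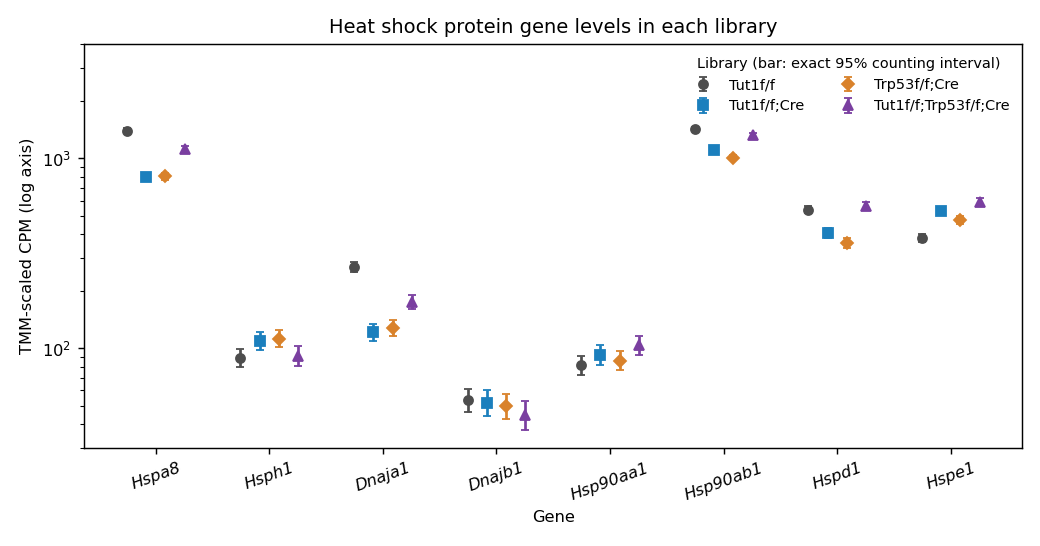
Level of each listed heat shock protein gene in TMM-scaled CPM (log axis) in the 4 libraries; points are single libraries and bars are exact 95% counting intervals. Hspa8 and Dnaja1 are highest in the control, at 1400 and 269 CPM, and Hspe1 is lowest in it, at 380 CPM.

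The stress-inducible HSP70 genes Hspa1a (chr17:34969190-34972156) and Hspa1b (chr17:34956436-34959238), neighbours on the minus strand with 1 exon each, had no entry naming them. Their coding sequences are identical at 1915 positions, 99.4% of the longer one, and 98.8% of their 250 upstream bases are identical, so reads could be split between them. Over the table as a whole, 17.1% of 1331 single-exon protein-coding genes had an entry, against 53.1% of 20620 with more exons. Hspa1a and Hspa1b are therefore given no level here, and absence from the named entries does not show that they were silent. Entries that name no gene carry only a position rounded to 1000 bases and no strand. Within the span of Hspa1a there were 2 such entries, with 30, 13, 62 and 18 reads together, most of them in the entry at 34969000, where the annotation also has Gm20481 on the opposite strand. The Trp53-Cre-labelled library was the highest of the 4, the control was the next, and the assignment of these reads to Hspa1a is uncertain. Within the span of Hspa1b an entry had 0, 3, 0 and 0 reads.

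Both HSP90 genes stayed within 1.5-fold of the control in their summed levels. Hsp90ab1 encodes the HSP90 protein of unstressed cells (chr17:45567775-45573271, minus strand) and had 5721, 3303, 3429 and 3946 reads, or 1432, 1103, 1008 and 1321 CPM. It was lower than the control in every library with Cre mRNA, with log2 ratios of -0.38 (interval -0.44 to -0.31), -0.51 (-0.57 to -0.44) and -0.12 (-0.17 to -0.06). Hsp90aa1 encodes the inducible HSP90 protein (chr12:110690605-110702728, minus strand), and 75.3% of the bases of the longer coding sequence are shared with Hsp90ab1. It had 325, 277, 293 and 310 reads, or 81.3, 92.5, 86.2 and 104 CPM. Its log2 ratios to the control were 0.19 (interval -0.05 to 0.42), 0.08 (-0.15 to 0.32) and 0.35 (0.12 to 0.58), so that only the last, in the double-Cre-labelled library, excluded no change.

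The mitochondrial chaperonin genes Hspd1 (HSP60, chr1:55077835-55088243, minus strand) and Hspe1 (HSP10, chr1:55088132-55091307, plus strand), which share the 4-unit element shown above, differed from the control in opposite directions in the Tut1-Cre-labelled and Trp53-Cre-labelled libraries. Hspd1 had 2149, 1210, 1221 and 1682 reads, or 538, 404, 359 and 563 CPM. Its log2 ratios to the control were -0.41 (interval -0.52 to -0.31), -0.58 (-0.69 to -0.48) and 0.07 (-0.03 to 0.16). Hspe1 had 1518, 1576, 1617 and 1754 reads, or 380, 526, 475 and 587 CPM. Its log2 ratios were 0.47 (interval 0.37 to 0.57), 0.32 (0.22 to 0.43) and 0.63 (0.53 to 0.73), and the control was the lowest of the 4 libraries. The intervals of Hspd1 and Hspe1 did not overlap in any of the 3 comparisons, which share the control library. Both genes have many reads and narrow intervals, and how often other pairs of genes fail to overlap was not computed. The main Hspe1 transcript is the shortest of the members, at 774 bases against 2394 to 3802 for the others. Among all tested genes, the median log2 ratio of the Tut1-Cre-labelled library to the control was 0.08 for the 2300 genes with transcripts of up to 1418 bases, as Hspe1, and -0.11 for the 2296 genes with transcripts of 2376 to 3584 bases, as Hspd1. It was -0.35 for transcripts of 1419 to 2375 bases and 0.22 for those of 3586 bases or more. The rank correlation of ratio and length across genes was 0.05, so the ratio did not fall steadily with length. The part of transcript length in the result was not tested. The annotated spans of the pair overlap at their starts, and strand use in counting is not given in the sources used here.

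Most members stayed within 2-fold of the control, as most genes did. At 2-fold with an interval excluding no change, 1 of 8 members, Dnaja1, differed in the Tut1-Cre-labelled library, against 26.0% of 9882 tested genes, and the same 1 of 8 in the Trp53-Cre-labelled library, against 27.5%. The latter call was lost, at -0.9996, when scaling by the library total. With the reads added that name no gene but lie within its span, both Dnaja1 log2 ratios fell short of 2-fold, at -0.99 (interval -1.12 to -0.85) and -0.96 (-1.08 to -0.83). Counting only isoforms that carry a plain Ensembl transcript name, with no suffix, Dnaja1 lost both calls and Hsp90ab1 passed instead, at -1.89 and -2.23. That setting leaves out the isoform that holds most Dnaja1 reads, which has a suffix, so its Dnaja1 values rest on few reads. None of 8 passed in the double-Cre-labelled library, against 20% of genes. With no fold threshold, 2 members were higher and 4 lower in the first comparison, where 55.4% of genes had an interval excluding no change, 27.8% higher and 27.6% lower. The counts were again 2 higher and 4 lower in the second (57.6% of genes, 29.1% higher and 28.5% lower) and 2 higher and 3 lower in the third (49.0%, 23.7% higher and 25.3% lower). The median log2 ratio of the 8 members, on the log2(CPM + 0.5) scale, was -0.21, -0.30 and -0.04, beside 0.02, 0.02 and -0.02 over all tested genes. The first turned positive with plain Ensembl transcripts only, and the third when scaling by the library total, as given below. The summed level of the 8 genes was 4242, 3202, 3022 and 4013 CPM, so the double-Cre-labelled library was nearer to the control than the other libraries were. Intervals are narrower for genes with more reads, and the shares over all genes include genes with few reads. These comparisons have no replicate check.

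Between the libraries with Cre mRNA, most members were higher in the one labelled double-Cre. This comparison with the Trp53-Cre-labelled library asks what floxed Tut1 adds where Trp53 is floxed in both. None of 8 members reached 2-fold, against 7.07% of tested genes, but 6 had an interval above no change and 1 below, where 33.1% of genes had an interval excluding no change, 16.9% higher and 16.2% lower. Members with many reads have narrow intervals, whereas the shares over all genes, here and below, include genes with few reads. The part of read number in these counts was not tested. Hspd1 had the largest difference, a log2 ratio of 0.65 (interval 0.54 to 0.76). It was followed by Hspa8 at 0.49 (0.41 to 0.56), Dnaja1 at 0.46 (0.27 to 0.64), Hsp90ab1 at 0.39 (0.32 to 0.46), Hspe1 at 0.30 (0.21 to 0.40) and Hsp90aa1 at 0.27 (0.03 to 0.50). Hsph1 was lower, at -0.30 (interval -0.53 to -0.07), and Dnajb1 was at -0.16 (-0.50 to 0.18). The median over the members was 0.35, beside -0.02 over all tested genes. Against the Tut1-Cre-labelled library, 5 members had an interval above no change and 1 below (24.7% of genes excluded no change, 12.8% higher and 11.9% lower), none of 8 at 2-fold (4.58% of genes). The Tut1-Cre-labelled and Trp53-Cre-labelled libraries were closest to each other, with 3 members higher in the former and 5 intervals including no change (18.9% of genes excluded it, 9.02% higher and 9.87% lower), and none of 8 at 2-fold (3.38%). These ratios share libraries with one another and with those above. For 5 members, the ratio of the Tut1-Cre-labelled library to the control and that of the double-Cre-labelled library to the Trp53-Cre-labelled one, which have no library in common, lay on opposite sides of no change with both intervals excluding it, as for 16.7% of all tested genes. For 4 of them the first was lower and the second higher, as for 9.66%.

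**Figure D2:**
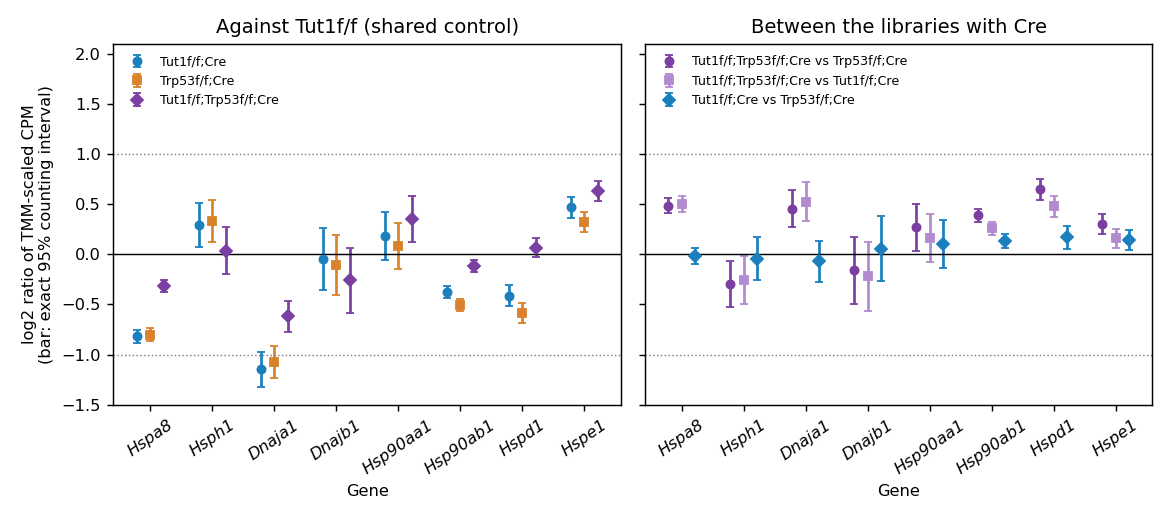
Log2 ratio of TMM-scaled CPM for each gene, against the control library (left) and between the libraries with Cre mRNA (right); bars are exact 95% counting intervals and dotted lines mark 2-fold. Only Dnaja1 passes the line, at -1.14 and -1.07, and on the right Hspd1, Hspa8 and Dnaja1 lie highest against Trp53-Cre, at 0.65, 0.49 and 0.46.

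A model over all 4 libraries, with Tut1 status and Trp53 status as additive terms and 1 residual degree of freedom, called none of the 8 members. For Tut1 status, edgeR's quasi-likelihood test with Benjamini-Hochberg adjustment called 0 of 9882 genes (0.0%), and 171 of them had a p under 0.05 before adjustment. DESeq2 called 0 genes as well, and 70 had such a p. The members' log2 coefficients ran from -0.34 ± 0.48 (SE) for Dnaja1 to 0.39 ± 0.41 for Hspe1, each with an adjusted p of 1. These coefficients depended on single libraries: fitted with Tut1 status alone, that of Dnaja1 was -0.42 over all 4 libraries, 0.22 without the control and -0.85 without the Trp53-Cre-labelled library, and that of Hspa8 was -0.20, 0.26 and -0.54. For Trp53 status, 1 gene was called (0.0101%), with 147 at an unadjusted p under 0.05, and the members' coefficients ran from -0.28 ± 0.48 for Dnaja1 to 0.24 ± 0.41 for Hspe1, each with an edgeR adjusted p that rounds to 1. No member reached an unadjusted p under 0.05 for either status in this model. In the fits of 1 status alone with a library left out, 2 did without the Trp53-Cre-labelled library (Tut1 status: Dnaja1 and Hspe1) and 2 without the Tut1-Cre-labelled library (Trp53 status: Dnaja1 and Hspa8), and none was called after adjustment. The additive terms take the difference by Tut1 status to be the same with and without floxed Trp53. Opposite directions in those comparisons, as given above for some members, are averaged by the model, so it cannot show them. The member differences described above are differences between single libraries. None passed this test, which does not show that they are absent.

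Isoform usage is the share of a gene's reads on each of its isoforms, and its largest differences among the members were in the HSP90 genes. The table names an isoform by its Ensembl transcript, by an Ensembl transcript with a suffix (called a variant here) or by a read, whose name carries a start and an end number. The difference of these numbers is given below as the span of a read-named isoform, and its exons are not stated. For Hsp90ab1, the Ensembl transcript ENSMUST00000024739 took 3024, 607, 537 and 976 reads, or 52.9%, 18.4%, 15.7% and 24.7% of the gene's reads. The control was highest by a wide margin and the Trp53-Cre-labelled library lowest. The difference from the control was -34.5 percentage points in the Tut1-Cre-labelled library (two-sided Fisher's exact test on reads, Benjamini-Hochberg adjusted p 9.52e-237), and -37.2 and -28.1 points in the other 2 (adjusted p by the same test 2.62e-289 and 2.08e-168).

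Read-named isoforms of Hsp90ab1 held a larger share where the Ensembl transcript held less. The one of span 2376, near the length of the Ensembl transcript, held 24.2%, 35.6%, 36.3% and 31.9% of the reads, and one of span 1024 held 14.9%, 34.0%, 34.5% and 32.5%. In levels, the Ensembl transcript went from 757 CPM in the control to 203, 158 and 327 CPM, a log2 ratio of -1.90 (interval -2.03 to -1.77) in the Tut1-Cre-labelled library. The isoform of span 1024 went from 214 CPM to 375, 348 and 430 CPM, a log2 ratio of 0.81 (interval 0.68 to 0.94) in the same library. The summed gene level thus combined isoforms that differed from the control in opposite directions.

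Hsp90aa1, at lower depth, also had its main isoform highest in the control. The variant of its transcript ENSMUST00000094361 held 169, 55, 46 and 90 reads, or 52.0%, 19.9%, 15.7% and 29.0%. The Tut1-Cre-labelled and Trp53-Cre-labelled libraries were lowest and the double-Cre-labelled library lay between. The differences from the control were -32.1, -36.3 and -23.0 points. A read-named isoform of span 1769 had 6.46%, 23.5%, 24.2% and 19.4% of the reads, 12.9 to 17.8 points above the control in the libraries with Cre mRNA. Others of span 2785, with 16% in the control and 18.4% to 19.5% in the others, of span 1000, with 13.2%, 15.9%, 19.8% and 18.4%, and of span 2967, with 5.85%, 10.5%, 10.6% and 6.77%, were not called in any pair. The variant was also higher in the double-Cre-labelled library than in the one labelled Trp53-Cre by 13.3 points (Fisher's exact test, adjusted p 0.00822), the only usage difference of a member called between libraries with Cre mRNA.

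Of the mitochondrial pair, Hspd1 shifted and Hspe1 did not pass the rule. ENSMUST00000027123, the main Hspd1 transcript, held 79.3%, 64.7%, 63.6% and 68.8% of the reads, and the differences from the control were -14.6, -15.8 and -10.5 points. A read-named isoform of Hspd1 of span 1268 held 6.84%, 11.9%, 11.9% and 11.8% and was not called. ENSMUST00000075242 of Hspe1 held 89.7%, 89.7%, 90.0% and 89.1%. Its variant ENSMUST00000075242-0 held 9.68%, 10.1%, 9.59% and 10.6% and was not called. In the HSP70 system, the main variant of Dnaja1, of ENSMUST00000030118, held 82.9%, 71.4%, 78.8% and 75.9%, and was called only in the Tut1-Cre-labelled library, at -11.5 points (Fisher's exact test, adjusted p 0.000129). Its read-named isoform of span 1468 held 2.33%, 10.7%, 6.22% and 7.27% and was not called. ENSMUST00000015800 of Hspa8 held 92.6%, 92.4%, 93.7% and 92.7%, so that its lower gene level in the libraries with Cre mRNA came with a share that differed by at most 1.31 points between any pair of libraries. Hsph1 had at least 99.2% of its reads on ENSMUST00000202361 in every library, and Dnajb1 had a single listed isoform.

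By the rule of an adjusted p under 0.05 and at least 10 points, 7 of 46 member isoforms tested differed in the Tut1-Cre-labelled library, against 8.66% of all 18376 isoforms tested. In the Trp53-Cre-labelled library the count was 6 of 47 (9.12% of all), and in the double-Cre-labelled library 5 of 46 (6.49%). Between the libraries with Cre mRNA it was 1 of 47 for double-Cre against Trp53-Cre (1.24%), 0 of 44 for double-Cre against Tut1-Cre (0.15%) and 0 of 45 for Tut1-Cre against Trp53-Cre (0.222%). Isoforms of 1 gene share its reads, so a fall of one fixes a rise of others, and Fisher's test on 2 libraries compares those libraries and not the conditions. Over the whole table the share of gene reads on plain Ensembl transcripts was 78.1% in the control and 74.2% to 75.0% in the others, and the share on read-named isoforms was 13.6% against 16.3% to 16.8%. The part of this table-wide shift in the member shifts was not tested. Annotated retained-intron transcripts took 19, 10, 22 and 14 reads of the members, or 0.112%, 0.104%, 0.214% and 0.117%, beside 0.964%, 1.59%, 1.49% and 1.55% over all genes. The members thus had a smaller share on such transcripts than all genes had in every library. Hspa8, Hspd1, Dnaja1 and Dnajb1 have no listed isoform of this kind, so their reads could only lower the members' share.

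**Figure D3:**
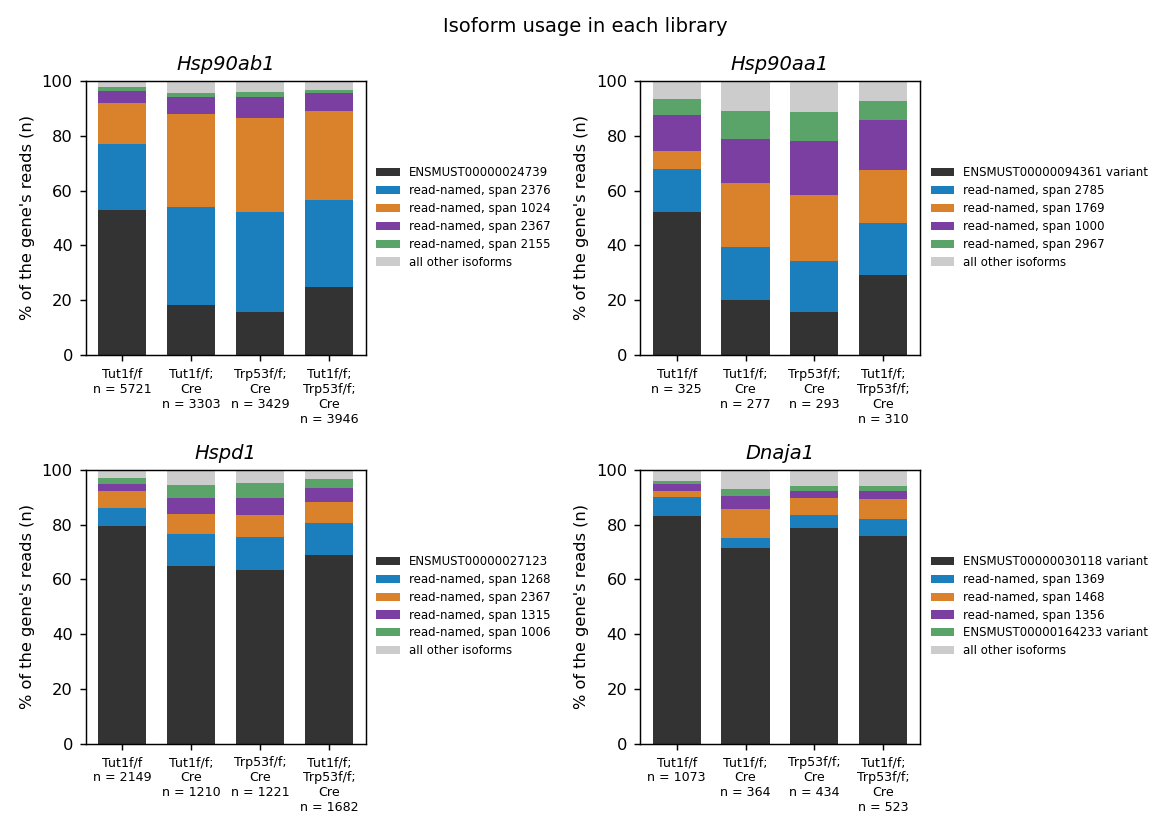
Share of each gene's reads on its 5 most read isoforms and all others, by library, with the gene's reads (n) under each bar. The black segment, the main Ensembl isoform, falls from 52.9% in the control to between 15.7% and 24.7% for Hsp90ab1 and from 52.0% to between 15.7% and 29.0% for Hsp90aa1.

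Of 69 further genes of the chaperone network, a list of the HSP70 and HSP90 families, co-chaperones, the TRiC chaperonin, small heat shock proteins and heat shock factors, 58 passed the filter on low counts. At 2-fold with an interval excluding no change, 4 were higher and 10 lower in the Tut1-Cre-labelled library, 2 higher and 12 lower in the Trp53-Cre-labelled library, and 3 higher and 5 lower in the double-Cre-labelled library. Of all tested genes, 13.1% were higher and 12.8% lower in the first, 13.2% and 14.3% in the second and 10.1% and 9.94% in the third. Among 4 genes that differed in all 3, Hspa4, an HSP110 relative of Hsph1, was higher, with 290, 563, 619 and 461 reads and log2 ratios of 1.37, 1.33 and 1.09 to the control. Lower were Sgta, a co-chaperone that hands membrane proteins to their insertion pathway, with 424, 65, 78 and 110 reads, and the HSP70 nucleotide exchange factors Hspbp1, with 191, 48, 21 and 54 reads, and Bag2, with 131, 28, 29 and 30 reads. The log2 ratios of Sgta were -2.29, -2.21 and -1.53. For Hspbp1 they were -1.58, -2.95 and -1.40, and for Bag2 -1.81, -1.94 and -1.71. Of all tested genes, 7.33% were higher and 5.69% lower by this rule in all 3 libraries.

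TRiC is the cytosolic chaperonin that folds actin and tubulin. All 8 of its listed subunits passed the filter, 2 were lower in the Tut1-Cre-labelled library, 4 in the Trp53-Cre-labelled library and 0 in the double-Cre-labelled library, against 12.8%, 14.3% and 9.94% of all tested genes. The median log2 ratios of the 8 were -0.589, -0.998 and -0.295, beside 0.02, 0.02 and -0.02 over all tested genes. Between the double-Cre-labelled and Trp53-Cre-labelled libraries, 3 of the 58 genes were higher and 0 lower, against 4.07% and 3.01% of all tested genes. These were Cct3 of TRiC (log2 ratio 1.06, interval 0.87 to 1.25), Hspbp1 (1.55, interval 0.80 to 2.35) and Clpx, the unfoldase of a mitochondrial protease (1.04, interval 0.21 to 1.90). Between the Tut1-Cre-labelled and Trp53-Cre-labelled libraries, Hspbp1 (1.38, interval 0.61 to 2.19) and the J-domain gene Dnajb14 (1.25, interval 0.15 to 2.43, from 23 and 11 reads) were higher in the former and 0 were lower (2.14% and 1.24% of all). Between the double-Cre-labelled and Tut1-Cre-labelled libraries no gene of the list passed (2.06% higher and 2.52% lower of all). Of the heat shock factors, Hsf1 had 52, 35, 39 and 41 reads and Hsf2 had 69, 18, 32 and 23 reads, and Hsf2 was lower by the rule in the Tut1-Cre-labelled library (log2 ratio -1.52, interval -2.36 to -0.76) and the double-Cre-labelled library (-1.16, interval -1.91 to -0.47). Both were named after their values were seen. Of 8 small heat shock proteins 3 passed the filter and none of these differed by the rule.

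**Figure D4:**
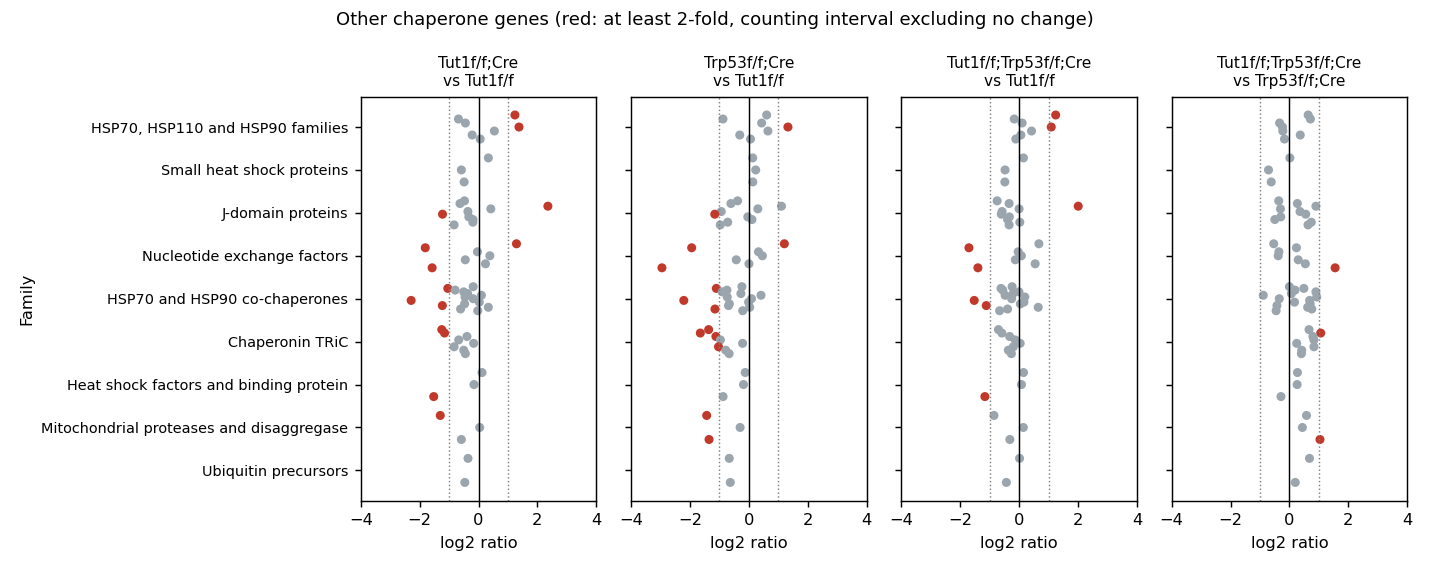
Log2 ratio of TMM-scaled CPM for the 58 further chaperone genes that passed the filter, grouped by family, in 4 comparisons; red points are at least 2-fold with a counting interval excluding no change. Lower genes outnumber higher ones against the control, at 10 to 4, 12 to 2 and 5 to 3.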

How the data were processed

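The deposited table holds read counts per isoform in 4 libraries, made by the authors from Nanopore cDNA-PCR reads and aligned to mm10 per the labels. The aligner and counter used for these libraries are not given in the sources used here. Counts were summed per gene by the Ensembl gene identifier in each entry, with symbols and positions from GENCODE M21 (GRCm38), and entries that name no gene (17.2% to 30.2% of reads) were left out of sizes and tests. Levels were scaled with TMM in edgeR 4.0.16 (R 4.3.3) over 9882 genes passing filterByExpr. With 1 library per group, pairs were compared by ratios with exact conditional binomial 95% intervals, counted at 2-fold or more. Status terms were fitted with edgeR's quasi-likelihood test, with DESeq2 1.42.0 as an alternative. Isoform usage was compared by two-sided Fisher's exact test for isoforms with 10 or more reads over both libraries, if each library had 20 or more reads of the gene. The members and lists were chosen with earlier results of these data known. All members are named. Of the further network, the genes that differed in the same direction in all 3 libraries with Cre mRNA against the control are named, with up to 3 with the largest difference in each other pair, and of isoforms those called or holding 10% or more of their gene. Processed pseudogenes of members are named where they had 10 or more reads.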

Additional observations from a re-analysis of the deposited data

Results flagged for a closer look

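For 5 members, the Tut1-Cre-labelled library differed from the control in one direction and the double-Cre-labelled library from the Trp53-Cre-labelled one in the other, with both counting intervals excluding no change. These 2 comparisons both set floxed Tut1 with Cre mRNA against a library without it and have no library in common, but only the second has Cre mRNA in both. Each rests on 1 library a side, and the difference between the 2 contrasts was not tested. Hspa8 had log2 ratios of -0.82 and 0.49, Hsp90ab1 of -0.38 and 0.39, Hspd1 of -0.41 and 0.65, and Dnaja1 of -1.14 and 0.46. Hsph1 had the reverse order, 0.29 and -0.30. Opposite directions by the same rule were found for 16.7% of all tested genes, and 9.66% were lower in the first and higher in the second. Genes with few reads, whose intervals are wide, are among these tested genes.

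Entries that name no gene, which were left out of the gene levels, had more reads than in the control, with an interval excluding no change, within the spans of Hspa1a, Hspd1, Hspe1 and Hsp90aa1. For Hspa1a and Hsp90aa1 this was so only in the Trp53-Cre-labelled library, and for Hspd1 not in the double-Cre-labelled one. Over the whole table such reads were themselves higher than in the control, with log2 ratios of 0.96, 0.90 and 0.70 in the Tut1-Cre-labelled, Trp53-Cre-labelled and double-Cre-labelled libraries on the scaling used for the genes. At Hspa1a the Trp53-Cre-labelled library had 62 reads against 30 in the control, a log2 ratio of 1.28 (interval 0.63 to 1.96), which includes the table-wide value. The Tut1-Cre-labelled and double-Cre-labelled libraries had fewer than the control there, 13 and 18 reads, with intervals including no change. At Hsp90aa1 the Trp53-Cre-labelled library had 64 against 41, a log2 ratio of 0.88 (interval 0.29 to 1.48), near the table-wide value. The Tut1-Cre-labelled and double-Cre-labelled libraries had 33 and 32 reads there, with log2 ratios of 0.10 and 0.06. At Hspd1 there were 7 reads in the Tut1-Cre-labelled library and 12 in the Trp53-Cre-labelled library, and 0 in the control. The double-Cre-labelled library had 4 reads there, with an interval including no change. At Hspe1 there were 6, 11 and 7 reads in the 3 libraries with Cre mRNA and 0 in the control. Against a control at 0 no ratio is given, and the lower interval limits of the log2 ratios, were 0.94 and 1.71 for Hspd1 and 0.65, 1.56 and 0.95 for Hspe1. An entry near the shared start of Hspd1 and Hspe1 counts for both genes, with 0, 3, 11 and 1 reads. These positions are rounded to 1000 bases and carry no strand, so the gene of origin is uncertain.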

How the results depend on the processing

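No paired analysis was possible because the labels give no replicate numbers and there is 1 library per group. DESeq2's size factors, no filter on low counts before scaling, and leaving the ribosomal RNA gene out of library sizes changed no call of a member. Scaling by the library total moved Dnaja1 in the Trp53-Cre-labelled library to -0.9996, just short of 2-fold, and left 0 members past it, and the median for the double-Cre-labelled library against the control became 0.11. At 1.5-fold, 2 members passed in each comparison with the control and 1 in double-Cre against Trp53-Cre, and the network counts became 21, 31 and 16 against the control and 18, 5 and 4 in the other pairs, where 42.3%, 44.3%, 34.9%, 18.5%, 11.8% and 7.97% of all tested genes passed. With no fold threshold, chosen after seeing the data, 6, 6, 5, 7, 6 and 3 members passed. With plain Ensembl transcripts only, the called member changed from Dnaja1 to Hsp90ab1. Hsp90ab1 was the 1 member that passed in each comparison with the control, at -1.89 in Tut1-Cre, -2.23 in Trp53-Cre and -1.20 in double-Cre, and the 1 that passed in double-Cre against Trp53-Cre, at 1.03. Dnaja1, whose main isoform is a variant, lost both calls, turning to 1.55 in Tut1-Cre (interval -0.09 to 3.43) and -0.09 in Trp53-Cre (interval -2.42 to 2.13). The medians for Tut1-Cre and Trp53-Cre against the control became 0.15 and -0.032, and Dnajb1, with no plain isoform, gave no value. At 20 percentage points, 2, 2, 2 and 0 member isoforms were called where 7, 6, 5 and 1 had been. Summing Hspa1a and Hspa1b gave no value, since neither is named. Leaving out each library in turn left too few libraries for both status terms, so these fits hold 1 status alone. They called 0 members throughout, with the lowest member adjusted p (edgeR) of 0.130 for Tut1 status without the Trp53-Cre-labelled library and 0.0708 for Trp53 status without the Tut1-Cre-labelled library. Over all genes the same status alone called 0 (Tut1) and 1 (Trp53) with 4 libraries. Without a library the calls were 0 to 12 for Tut1 status, the most without the control, and 0 to 1474 for Trp53 status, the most without the Tut1-Cre-labelled library, where the fit sets both libraries labelled Trp53 against the control. A lone library in a fit is assumed to vary like the others. Depth limits the rarer members most: the interval of Dnajb1 in the Tut1-Cre-labelled library, from 155 reads, ran from -0.35 to 0.26.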

Other observations

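Chaperone genes have many processed pseudogenes, copies of their mRNA in the genome that can catch reads. In GENCODE M21, 22 such pseudogenes share at least 20% of their 25-base words with a member transcript, and 4 of them had an entry, with 210 reads in all. Gm12346, which shares 86.6% of its words with Hsp90aa1, had 35, 27, 35 and 26 reads in the order used above, beside 325, 277, 293 and 310 reads of Hsp90aa1. Gm15459, which shares 93.5% with Hspa8, had 17, 20, 17 and 12 reads, and Gm15542, which shares 86.1% with Dnaja1, had 0, 5, 6 and 1 reads. How the reads of these copies were divided from those of the parent genes is not given in the sources used here.

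Within the span of Dnaja1, 5 entries that name no gene held 547, 248, 277 and 218 reads, beside 1073, 364, 434 and 523 reads on its named isoforms. Of these, 528, 239, 264 and 205 lay in 1 entry at 40731000 on chromosome 4, where the annotation has Dnaja1 alone. The log2 ratios of these entries to the control were -0.73, -0.75 and -0.91, lower in all 3 libraries with Cre mRNA as for the named isoforms, while all entries that name no gene were at 0.96, 0.90 and 0.70. Added to the named reads, chosen after seeing the data, they gave Dnaja1 log2 ratios of -0.99, -0.96 and -0.71. In contrast to the named isoforms, the lowest of the 4 libraries in reads was the one labelled Tut1f/f;Trp53f/f;Cre. Cryab, a small heat shock protein that did not pass the filter on low counts and was named after its values were seen, had 8, 29, 8 and 7 reads. The J-domain gene Dnajb5, which did not pass either and was named in the same way, was highest in the control, with 51, 7, 7 and 6 reads.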
